A study of Mus musculus with 5 samples.

Results

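Glutathione, Nrf2 and detoxification genes were examined in 2 cell populations sorted from the pancreas of adult mice. The set was chosen by symbol and held 47 genes: glutathione enzymes, Nrf2 with its inhibitor and targets, antioxidant enzymes, enzymes of drug and carbonyl metabolism, export pumps and metallothioneins. Of these, 45 were listed for every library among 16992 common symbols, and 43 had a mean of at least 1 and entered the test of 11769 genes. Gsta1 and Gsta2 had no row in 1 table and were dropped. All cells came from C57BL/6 mice aged 2 to 4 months, and RNA was taken from freshly sorted cells. CD133(high)CD71(low) cells were profiled in 3 libraries and CD133(positive)CD71(negative) cells in 2. Prom1 codes for the surface protein CD133, and Tfrc for CD71, which takes up transferrin. A second label field and the table headers describe the CD133(high)CD71(low) libraries as positive for CD71. Nothing in the labels tells whether libraries were made from different mice or sorting runs; all p-values therefore reflect library-to-library spread that may be technical. According to its title, the study concerned the enrichment of colony-forming progenitors among CD133(high)CD71(low) cells.

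Glutathione is a cysteine-containing tripeptide that keeps the cell interior reduced. Glutathione S-transferases join it to reactive chemicals, glutathione peroxidases use it to remove peroxides, and pumps of the Abcc family carry the conjugates out of the cell. Nrf2, encoded by Nfe2l2, is the transcription factor that switches on many of these genes through antioxidant response elements. Keap1 marks it for destruction until oxidants or electrophiles modify Keap1. In the pancreas, digestive enzymes are made by acinar cells, and duct cells line the tubes that drain them.

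Values were read as RPKM, that is reads corrected for transcript length and sequencing depth, a unit inferred from the numbers themselves, and they allow levels of different genes to be compared per length. Depth inferred from the steps between low values was 32.0, 30.8 and 41.7 megareads in CD133(high)CD71(low) libraries 1, 2 and 3, against 25.4 and 19.8 megareads in the CD133(positive)CD71(negative) libraries. Library 3, whose title carries no number, has a table with another set of symbols (22522 against 18618) and differed from its partners more than they did from each other. On the log2 scale Pearson r over tested genes, which are not independent replicates, was 0.911 and 0.920 between library 3 and its partners, against 0.994 between the partners. Against the CD133(positive)CD71(negative) libraries, r was between 0.918 and 0.933 for the partners and 0.806 and 0.818 for library 3. The partners were thus about as close to the other group as to library 3. Duct markers summed to 3531, 3599 and 5547 RPKM in CD133(high)CD71(low) libraries and to 2611 and 2811 RPKM in CD133(positive)CD71(negative) libraries. Leukocyte markers summed to 76.2, 66.6 and 40.9 RPKM, against 1498 and 1474 RPKM in CD133(positive)CD71(negative) libraries. Acinar genes took 56.6%, 57.2% and 42.9% of summed RPKM in CD133(high)CD71(low) cells and 64.6% and 61.2% in CD133(positive)CD71(negative) cells.

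Detoxification genes of every class were measured in both populations, and few of them passed the test with all libraries included. Of the 43 tested, 5 rose in CD133(high)CD71(low) cells, namely the glutathione S-transferase genes Gstt1 and Gstk1, the glutathione synthetase gene Gss, the peroxidase gene Gpx2 and the carbonyl reductase gene Cbr3. One gene, the secreted peroxidase gene Gpx3, fell to 0.492 of its mean in CD133(positive)CD71(negative) cells. The calls are from limma with Benjamini-Hochberg adjustment over all genes and a threshold of 0.05. Among all genes tested, 6.25% were higher and 7.22% lower by the same rule, beside 11.6% and 2.33% of the members. Of the duct markers, 5 of 8 tested rose and none fell, and the part of duct cells in the members that rose was not tested. The erythroid markers also rose (3 of 4 tested, none lower), with sums of 122.6, 118.0 and 32.3 RPKM in CD133(high)CD71(low) libraries, against 11.6 and 11.8 RPKM in CD133(positive)CD71(negative) libraries, and the part of those cells was not tested. An unadjusted p under 0.05 was found for 20 members in the higher and 3 in the lower direction, against 27.5% and 9.18% of all genes. The median log2 fold change of the members was 0.44, against 0.31 for all genes, and 81.4% of members had a positive value, against 80.4% of all genes. Every fold change is a difference of mean log2(RPKM + 1), with CD133(high)CD71(low) first, a scale that understates changes of low genes.

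The level of the set as a whole was higher in each CD133(high)CD71(low) library. The 45 members summed to 2346, 2296 and 2719 RPKM in CD133(high)CD71(low) libraries and to 1866 and 1926 RPKM in CD133(positive)CD71(negative) libraries. That was 0.468%, 0.458% and 0.635% of all summed RPKM, against 0.352% and 0.383%. Acinar genes took a smaller share of the same total in CD133(high)CD71(low) libraries, as given above, and the part of that share was not tested. With acinar genes removed and values rescaled, the median log2 fold change was 0.22 for the members and 0.11 for all genes. The groups did not overlap for 30 members with higher values in CD133(high)CD71(low) cells (69.8%, against 58.2% of all genes) and for 4 with lower values (9.3%, against 12% of all genes). Library 3 lay above libraries 1 and 2 of its group for 28 of the 43, or 65.1%, against 70.2% of all genes.

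**Figure D1:**
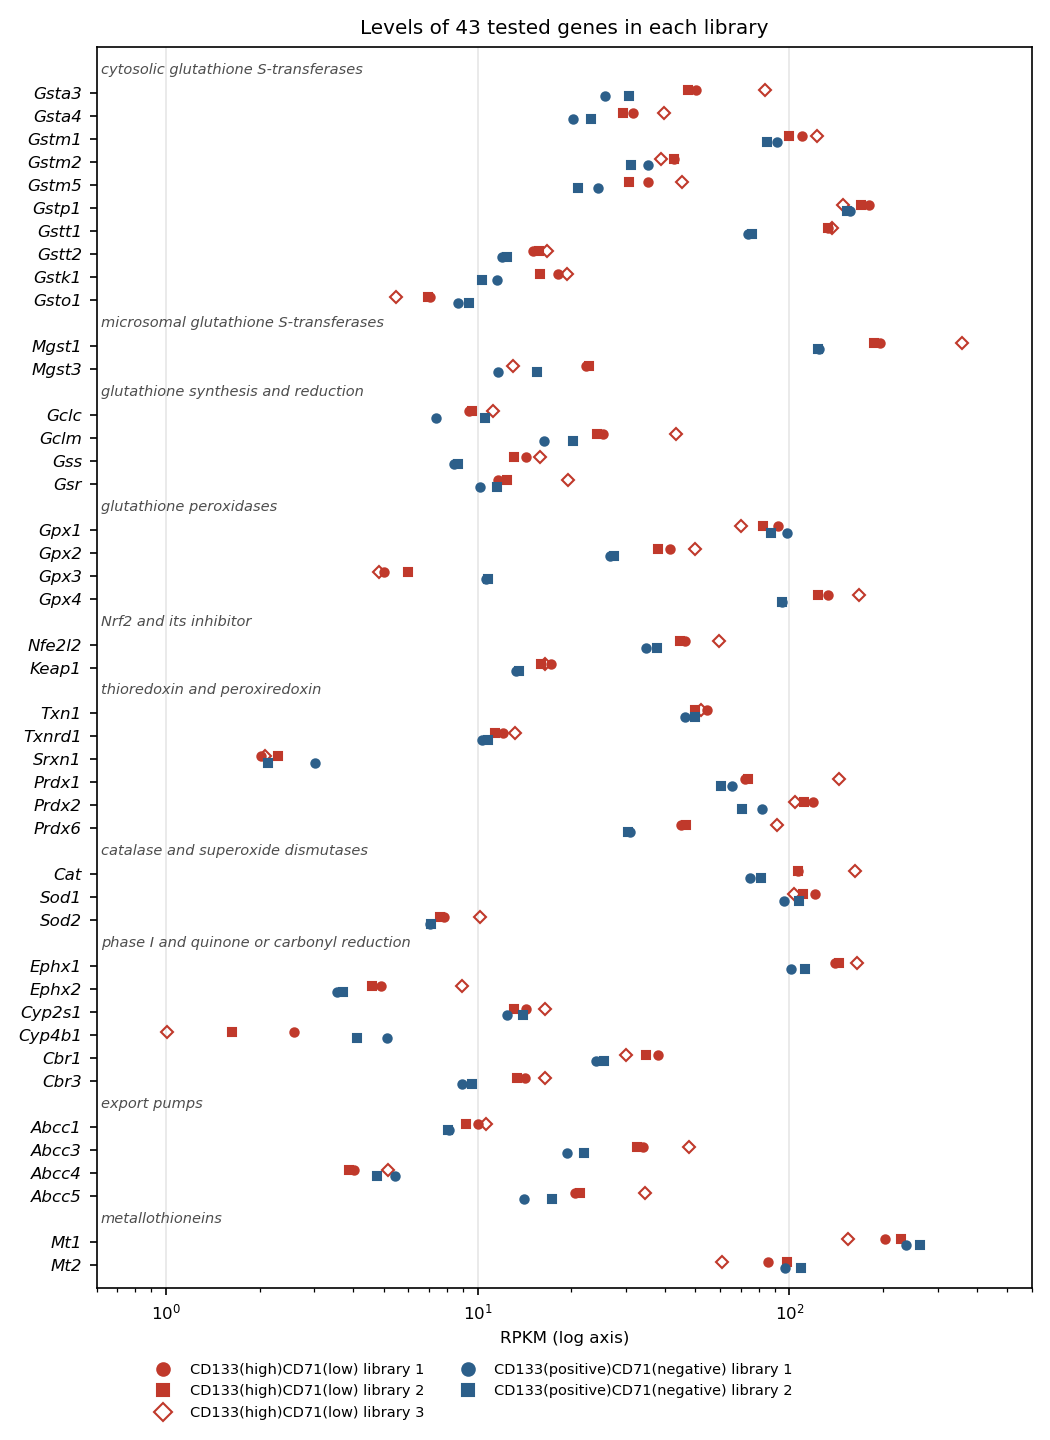
RPKM of the 43 tested genes (log axis) in each library, grouped by role, with CD133(high)CD71(low) libraries in red above CD133(positive)CD71(negative) libraries in blue. Most red points lie to the right of the blue ones; Gpx3, Cyp4b1, Gsto1 and Mt1 lie to the left, and the open diamonds are library 3.

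The calls depended on which libraries were included. Without CD133(high)CD71(low) library 3, 25 of the 43 members rose and 4 fell, against a background of 40.9% of genes higher and 12.2% lower. Beside the 5 that rose with all libraries, these were Gsta3, Gsta4, Gstm1, Gstm2, Gstm5, Gstt2, Mgst1, Mgst3, Gclm, Gpx4, Nfe2l2, Keap1, Prdx2, Prdx6, Cat, Ephx1, Ephx2, Cbr1, Abcc3 and Abcc5, and beside Gpx3 the fallen ones were Gsto1, Cyp4b1 and Abcc4. Without library 1 of that group 1 member rose (Gstt1) and 1 fell (Cyp4b1), against 0.753% and 6.63% of all genes; at an unadjusted p under 0.05 these were 16 and 3 members, against 20.4% and 8.9% of all genes. Without its library 2 none rose and 1 fell (Gpx3), against 0.338% and 4.75% of all genes. At an unadjusted p under 0.05, 17 members were then higher and 2 lower, against 20.9% and 8.61% of all genes. Without either CD133(positive)CD71(negative) library no member passed in limma, a fit in which the remaining library is assumed to vary like the other group; among all genes 0% passed as higher and 1.34% as lower without library 1, and 0.00855% and 1.32% without library 2. At an unadjusted p under 0.05, 7 members were higher and 1 lower without library 1 (6.7% and 6.71% of all genes), and 9 and 2 without library 2 (11.7% and 6.6%). Scaling mattered as well. Under median-of-ratios scaling the all-gene median was 0.06 in place of 0.31, and the fit left 2 members higher (Gss and Abcc3) and 1 lower (Gpx3), against 2.65% and 9.25% of all genes. Among all genes, 735 were higher and 850 lower before this scaling, and 312 and 1090 after it. With this scaling and without library 3, 16 members were higher and 6 lower, against 15.2% and 16.5% of all genes.

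The glutathione S-transferases that work in the cytosol, peroxisomes or mitochondria were led in level by Gstp1, Gstt1 and Gstm1. Gstt1, a theta-class enzyme (chromosome 10, 75783813 to 75798584, mm10), measured 133, 133 and 137 RPKM in CD133(high)CD71(low) libraries and 73.6 and 75.6 RPKM in CD133(positive)CD71(negative) libraries. The groups lay far apart and the libraries of each group were close together, library 3 included. The log2 fold change was 0.84 (SE 0.11, limma adjusted p = 0.00923). Gstk1, the kappa-class enzyme of mitochondria and peroxisomes (chromosome 6, 42245935 to 42250447), measured 18.1, 15.8 and 19.4 RPKM, against 11.5 and 10.4 RPKM in CD133(positive)CD71(negative) cells. It rose by 0.65 on the log2 scale (SE 0.14, limma adjusted p = 0.0358). The other 8 tested members of this role did not pass, among them Gstt2, the neighbour of Gstt1, at 15.1, 15.7 and 16.7 RPKM, against 12.0 and 12.4 RPKM (limma adjusted p = 0.0938).

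Of the alpha class, Gsta3 had the highest fold change of the 43 members with all libraries included; without library 3 its value was 0.77 and that of Gstt1, at 0.82, was higher. It measured 50.3, 47.2 and 83.3 RPKM in CD133(high)CD71(low) libraries, against 25.7 and 30.6 RPKM in CD133(positive)CD71(negative) libraries. The groups did not overlap, and library 3 was far above its partners (log2 fold change 1.03, SE 0.27, limma adjusted p = 0.0643). Gsta4, whose enzyme acts on the lipid peroxidation product 4-hydroxynonenal, measured 31.5, 29.3 and 39.6 RPKM, against 20.2 and 23.2 RPKM (limma adjusted p = 0.0727). Gsta1 and Gsta2, near-identical genes that could share reads, were between 0 and 0.184 RPKM in the 4 numbered libraries. Gsta3 and Gsta4 were the alpha-class members tested. Because reads could be shared, the low values of Gsta1 and Gsta2 cannot show that either was absent.

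The mu class genes lie in a cluster of similar sequences on chromosome 3 and are uncertain where reads could be split among them. Gstm1 measured 110, 99.4 and 123 RPKM in CD133(high)CD71(low) cells and 91.0 and 84.8 RPKM in CD133(positive)CD71(negative) cells. Gstm2 measured 42.6, 42.6 and 38.7 RPKM, against 35.1 and 31.0 RPKM, and Gstm5 35.3, 30.5 and 45.2 RPKM, against 24.3 and 21.0 RPKM. None of the 3 passed (limma adjusted p between 0.0753 and 0.152). Their groups did not overlap, with higher values in CD133(high)CD71(low) cells, as for 58.2% of all genes. Gstp1, the pi-class enzyme, was the most abundant of these transferases and was nearly level: 180, 170 and 148 RPKM in CD133(high)CD71(low) libraries, against 156 and 153 RPKM in CD133(positive)CD71(negative) libraries (log2 fold change 0.10, SE 0.14, limma adjusted p = 0.588). Gstp2, a near-identical copy that could share reads with it, averaged 1.49 RPKM in CD133(high)CD71(low) cells and 1.84 RPKM in CD133(positive)CD71(negative) cells. Gsto1, the omega-class enzyme that also reduces dehydroascorbate, was the one tested transferase with lower values in every CD133(high)CD71(low) library, at 7.02, 6.92 and 5.46 RPKM, against 8.65 and 9.38 RPKM (log2 fold change -0.43, SE 0.15, limma adjusted p = 0.108).

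Of the microsomal transferases, which sit in membranes, Mgst1 had the highest group mean of the set in CD133(high)CD71(low) cells, through library 3; in libraries 1 and 2 Mt1 was higher. It measured 196, 187 and 359 RPKM in these, against 124 and 124 RPKM in CD133(positive)CD71(negative) cells. Every CD133(high)CD71(low) library was above both others, and library 3 was well above its partners (log2 fold change 0.92, SE 0.31, limma adjusted p = 0.0998). Without library 3 the log2 fold change was 0.62 and Mgst1 passed (limma adjusted p = 0.000166, over all alternatives between 3.33e-09 and 0.451). Mgst3 measured 22.2, 22.8 and 13.0 RPKM, against 11.6 and 15.6 RPKM, and the groups overlapped through library 3. Mgst2 was at or below 0.333 RPKM in every library and was not tested.

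Among the 4 genes that make or recycle glutathione, Gss rose. Gss encodes glutathione synthetase, the enzyme of the final step (chromosome 2, 155563181 to 155592810), and measured 14.3, 13.1 and 15.9 RPKM in CD133(high)CD71(low) libraries and 8.40 and 8.69 RPKM in CD133(positive)CD71(negative) libraries. The groups were well separated (log2 fold change 0.69, SE 0.13, limma adjusted p = 0.0258). Synthesis starts with glutamate-cysteine ligase, whose catalytic and modifier subunits are encoded by Gclc and Gclm. Gclc measured 9.37, 9.62 and 11.2 RPKM, against 7.38 and 10.5 RPKM, with overlapping groups. Gclm measured 25.3, 24.1 and 43.3 RPKM, against 16.4 and 20.2 RPKM (limma adjusted p = 0.142). The modifier transcript exceeded the catalytic one in every library, at 2.7, 2.51 and 3.86 times its level in CD133(high)CD71(low) cells and 2.22 and 1.92 times its level in CD133(positive)CD71(negative) cells. Gsr, encoding the reductase that regenerates glutathione, measured 11.7, 12.4 and 19.6 RPKM, against 10.2 and 11.6 RPKM, and did not pass (limma adjusted p = 0.288).

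The glutathione peroxidases moved both ways. Gpx2, the selenoenzyme typical of digestive epithelium (chromosome 12, 76792333 to 76795554), measured 41.4, 37.9 and 49.9 RPKM in CD133(high)CD71(low) libraries and 26.7 and 27.4 RPKM in CD133(positive)CD71(negative) libraries. Gpx2 rose by 0.64 on the log2 scale (SE 0.15, limma adjusted p = 0.0483), just inside the threshold. Gpx3, the peroxidase secreted into plasma (chromosome 11, 54902453 to 54910377), measured 5.03, 6.00 and 4.82 RPKM, against 10.7 and 10.8 RPKM in CD133(positive)CD71(negative) cells. It fell by 0.91 on the log2 scale (SE 0.14, limma adjusted p = 0.0135). The ratio of Gpx3 to Gpx2 within a library was 0.121, 0.158 and 0.0966 in CD133(high)CD71(low) cells and 0.399 and 0.396 in CD133(positive)CD71(negative) cells.

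Neither of the other peroxidases passed. Gpx4, which reduces lipid hydroperoxides in membranes, measured 133, 123 and 167 RPKM in CD133(high)CD71(low) libraries, against 94.8 and 94.4 RPKM in CD133(positive)CD71(negative) libraries (limma adjusted p = 0.0796). Gpx1, the widely expressed cytosolic form, overlapped between groups, at 91.8, 82.5 and 69.9 RPKM, against 97.9 and 87.6 RPKM (limma adjusted p = 0.366). Marker sums of some other cell types were lower in the libraries where Gpx3 was lower. Endothelial markers summed to 130, 83.1 and 56.1 RPKM in CD133(high)CD71(low) cells and to 488 and 455 RPKM in CD133(positive)CD71(negative) cells, with 8 of 8 lower. Mesenchymal markers summed to 76.8, 73.4 and 75.4 RPKM, against 228 and 206 RPKM, with 6 of the 6 tested lower, and of the 9 leukocyte markers tested 8 were lower. Endocrine markers summed to 1565, 1819 and 583 RPKM, against 1770 and 1593 RPKM. These sums overlapped between groups, while 3 of the 7 endocrine markers tested were lower and 0 higher. Schwann cell markers summed to 2.05, 2.19 and 3.26 RPKM, against 15.0 and 13.0 RPKM, with 3 of the 4 tested lower. Erythroid markers were higher, as given above. No marker of these lists was at 0 in any library, and the part of these cells in the fall of Gpx3 was not tested. In such bulk samples, fewer cells of a type and less RNA per cell cannot be told apart.

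**Figure D2:**
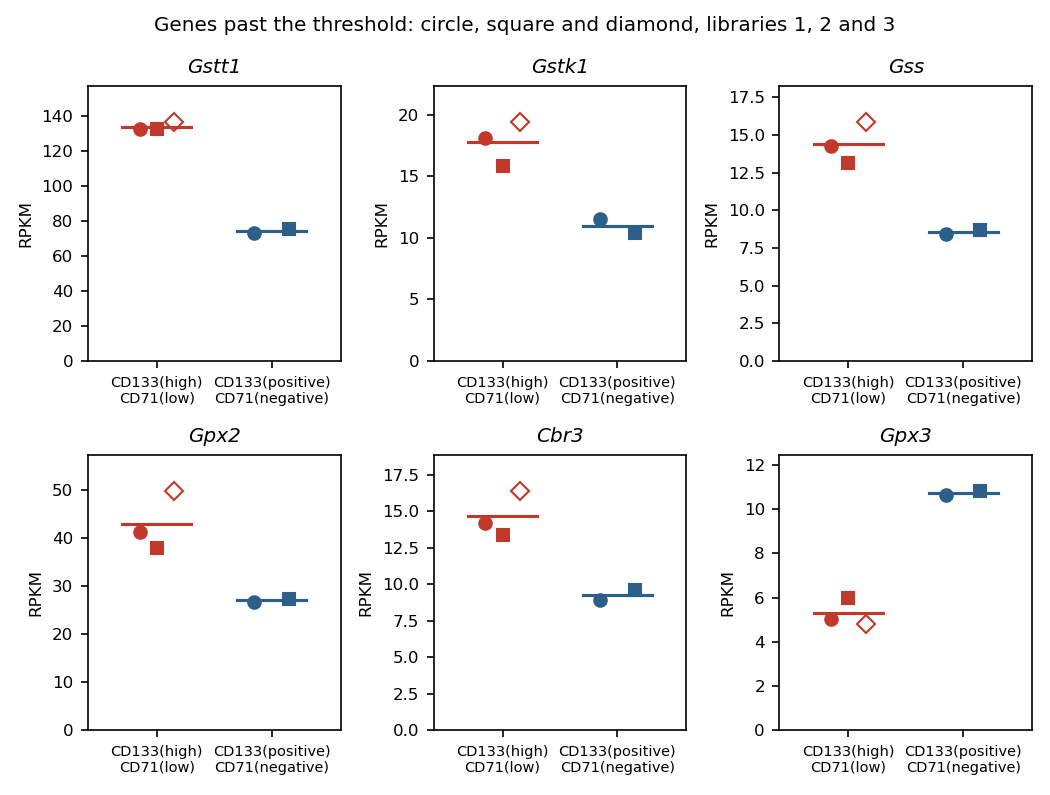
RPKM of the 6 genes past the threshold in each CD133(high)CD71(low) library (red, left) and each CD133(positive)CD71(negative) library (blue, right), with horizontal lines at the group means. In each panel the groups do not overlap; 5 genes are higher and Gpx3 is lower in CD133(high)CD71(low) cells.

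The stretches just before the starts of 4 genes are shown because they set the 2 peroxidase genes that moved in opposite directions beside 2 glutathione genes that hold the core of the antioxidant response element. Gsta3 and Gclm lie outside the rule for named genes and were chosen for this after their values were seen. Sequences are the 250 bases before the RefSeq start (GRCm38.p6), read in the direction of the gene, at chr12:76795555-76795804 on the minus strand for Gpx2, chr11:54902604-54902853 on the plus strand for Gpx3, chr1:21240335-21240584 on the plus strand for Gsta3 and chr3:122245307-122245556 on the plus strand for Gclm. The RefSeq start used for Gpx3 lies downstream of the GENCODE start, so its window falls within the gene interval given above. Capitals mark matches to the core TGACNNNGC on either strand.
Gpx2: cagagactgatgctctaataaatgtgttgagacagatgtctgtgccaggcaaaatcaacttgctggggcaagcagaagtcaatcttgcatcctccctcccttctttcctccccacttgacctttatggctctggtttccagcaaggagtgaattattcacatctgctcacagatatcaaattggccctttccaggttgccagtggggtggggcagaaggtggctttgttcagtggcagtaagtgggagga
Gpx3: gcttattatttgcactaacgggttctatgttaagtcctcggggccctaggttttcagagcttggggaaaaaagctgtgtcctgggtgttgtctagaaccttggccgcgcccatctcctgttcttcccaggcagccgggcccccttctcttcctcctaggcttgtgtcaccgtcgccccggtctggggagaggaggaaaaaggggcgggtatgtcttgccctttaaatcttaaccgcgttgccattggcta
Gsta3: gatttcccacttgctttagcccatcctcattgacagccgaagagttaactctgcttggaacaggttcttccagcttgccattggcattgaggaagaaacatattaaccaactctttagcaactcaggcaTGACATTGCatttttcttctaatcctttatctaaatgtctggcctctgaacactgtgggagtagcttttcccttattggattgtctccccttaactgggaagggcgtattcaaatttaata
Gclm: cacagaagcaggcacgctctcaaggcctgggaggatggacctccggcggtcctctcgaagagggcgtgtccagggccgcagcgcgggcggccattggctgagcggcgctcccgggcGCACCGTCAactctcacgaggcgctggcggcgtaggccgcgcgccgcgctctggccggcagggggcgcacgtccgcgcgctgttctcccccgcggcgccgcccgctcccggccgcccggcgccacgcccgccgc

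The core lay 121 to 113 bases before the start of Gsta3 on the gene's strand and 134 to 126 bases before that of Gclm on the other strand. In Gclm the bases of the match overlap one match of TGCNCNC, a loose form of the metal response element core, which was also searched on both strands. Promoter sequences were at hand for 39 of the 47 members, and 10 of the 39 held the antioxidant core at one or more of their starts: Abcc4, Gclm, Gsta3, Gstm5, Mgst1, Mt2, Nfe2l2, Prdx1, Sod1 and Txnrd1. Of the 6 members past the threshold none held it in this window. Counted by start, 23.4% of the members' 47 windows held the antioxidant core, against 10.2% of all 32851 promoters. For genes of the same pathways outside the set the share was 10.9% of 138 windows. The loose metal pattern was in 48.9% of the members' windows, against 44.4% of all promoters and 38.4% of those 138 windows. A match is a description of these letters only.

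Nfe2l2 and Keap1 did not pass in limma. Both were higher at an unadjusted limma p under 0.05, as were 27.5% of all genes. Nfe2l2 measured 46.2, 44.5 and 59.4 RPKM in CD133(high)CD71(low) libraries and 34.8 and 37.7 RPKM in CD133(positive)CD71(negative) libraries. Its groups did not overlap (log2 fold change 0.44, SE 0.16, limma adjusted p = 0.118), and without library 3 the log2 fold change of Nfe2l2 was 0.32. Keap1 measured 17.2, 16.0 and 16.5 RPKM, against 13.3 and 13.6 RPKM (limma adjusted p = 0.127). The Keap1 to Nfe2l2 ratio was 0.374, 0.36 and 0.277 in CD133(high)CD71(low) cells and 0.382 and 0.36 in CD133(positive)CD71(negative) cells, so it was close to the same in the 4 numbered libraries. Nqo1, a quinone reductase often read as an Nrf2 target, was at 0.383, 0.564 and 0.415 RPKM, against 0.581 and 0.520 RPKM, and was too low to be tested. Srxn1, the sulfiredoxin that repairs oxidized peroxiredoxins and another Nrf2 target, overlapped between groups at 2.02 to 2.30 RPKM, against 2.13 to 3.01 RPKM.

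In the thioredoxin and peroxiredoxin group none of the 6 genes passed in limma. At an unadjusted limma p under 0.05, 2 were higher, against 27.5% of all genes. Prdx2, a cytosolic peroxiredoxin and the highest of the group by mean, measured 119, 112 and 104 RPKM in CD133(high)CD71(low) libraries and 81.9 and 70.6 RPKM in CD133(positive)CD71(negative) libraries. The groups did not overlap, and the gene stood just outside the threshold (log2 fold change 0.54, SE 0.13, limma adjusted p = 0.0541). Prdx1 measured 72.0, 73.6 and 144 RPKM, against 65.5 and 60.5 RPKM. Prdx6, which also has phospholipase activity, measured 44.8, 46.5 and 91.4 RPKM, against 30.8 and 30.3 RPKM. For both genes library 3 was far above its partners, and the difference between libraries 1 and 2 of CD133(high)CD71(low) was small. Without library 3 the log2 fold change was 0.21 in place of 0.53 for Prdx1 and 0.57 in place of 0.89 for Prdx6. Txn1, encoding thioredoxin, measured 54.4, 49.9 and 51.9 RPKM, against 46.3 and 49.9 RPKM (limma adjusted p = 0.443), and Txnrd1, its reductase, 12.0, 11.4 and 13.2 RPKM, against 10.3 and 10.8 RPKM.

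Catalase and the superoxide dismutases did not pass in limma either. Of the 3, 1 was higher at an unadjusted limma p under 0.05, against 27.5% of all genes. Cat, the peroxisomal enzyme that splits hydrogen peroxide, measured 106, 107 and 163 RPKM in CD133(high)CD71(low) libraries, against 74.8 and 80.8 RPKM in CD133(positive)CD71(negative) libraries (limma adjusted p = 0.103). Without library 3 it passed at a log2 fold change of 0.45 (limma adjusted p = 0.00163, over all alternatives between 3.19e-05 and 0.468). Sod1, the copper and zinc enzyme of the cytosol and the highest of the 3 by the mean over all 5 libraries (Cat was higher in the CD133(high)CD71(low) mean), measured 121, 111 and 104 RPKM, against 95.8 and 107 RPKM. Its groups overlapped (log2 fold change 0.14, SE 0.13, limma adjusted p = 0.425), and under median-of-ratios scaling the value was -0.15. Sod2, the manganese enzyme of mitochondria, was lower in level, at 7.82, 7.60 and 10.2 RPKM, against 7.03 and 7.09 RPKM.

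Among enzymes of phase I and of carbonyl reduction, Cbr3 rose. Cbr3 encodes a carbonyl reductase that uses NADPH (chromosome 16, 93683215 to 93690990) and measured 14.2, 13.4 and 16.4 RPKM in CD133(high)CD71(low) libraries and 8.90 and 9.57 RPKM in CD133(positive)CD71(negative) libraries. The groups did not overlap (log2 fold change 0.61, SE 0.13, limma adjusted p = 0.0418). Its neighbour Cbr1, a related reductase, measured 37.8, 34.8 and 29.8 RPKM, against 24.0 and 25.5 RPKM (limma adjusted p = 0.0909). Ephx1, the microsomal epoxide hydrolase, was far more abundant than Ephx2, the soluble one. Ephx1 measured 141, 145 and 165 RPKM, against 101 and 112 RPKM (limma adjusted p = 0.0724), and Ephx2 4.91, 4.60 and 8.91 RPKM, against 3.55 and 3.69 RPKM.

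The cytochrome P450 members differed from each other. Cyp4b1 measured 2.59, 1.63 and 1.01 RPKM in CD133(high)CD71(low) libraries and 5.11 and 4.10 RPKM in CD133(positive)CD71(negative) libraries. It had the lowest fold change of the 43 members, and its groups did not overlap (log2 fold change -1.07, SE 0.27, limma adjusted p = 0.0558). Without library 3 the log2 fold change was -0.86 and Cyp4b1 passed (limma adjusted p = 0.00168), and without library 1 it was -1.28 (limma adjusted p = 0.0274); over the 12 alternatives that could be fitted the adjusted p lay between 2.43e-14 and 0.398. Within the CD133(high)CD71(low) libraries the endothelial, leukocyte, endocrine and erythroid sums and the acinar share, like Cyp4b1, were lowest in library 3. The mesenchymal, duct and Schwann cell sums were not, but most of the mesenchymal sum was Vim, at 59.9, 57.7 and 70.2 RPKM. Every other listed mesenchymal marker was lowest in library 3, such as Col3a1 at 2.90, 3.04 and 0.386 RPKM and Fn1 at 8.30, 6.69 and 3.85 RPKM. The part of any of these cells was not tested. Cyp2s1, an epithelial P450, overlapped between groups at 14.3, 13.1 and 16.5 RPKM, against 12.4 and 14.0 RPKM (limma adjusted p = 0.462).

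Of the 4 export pumps none passed in limma. At an unadjusted limma p under 0.05, 1 was higher, against 27.5% of all genes. Abcc3, the most abundant, encodes a pump of the basolateral membrane for glucuronides and bile acids. It measured 33.9, 32.6 and 47.8 RPKM in CD133(high)CD71(low) libraries and 19.4 and 22.0 RPKM in CD133(positive)CD71(negative) libraries, without overlap. The log2 fold change of Abcc3 was 0.83 (SE 0.20, limma adjusted p = 0.0509), just outside the threshold, and without library 3 it was 0.66. Abcc5, a pump of cyclic nucleotides, measured 20.5, 21.3 and 34.4 RPKM, against 14.1 and 17.3 RPKM. Abcc1, which exports glutathione conjugates, measured 10.1, 9.17 and 10.7 RPKM, against 8.07 and 8.06 RPKM. Abcc4 overlapped, at 4.00, 3.87 and 5.16 RPKM, against 5.45 and 4.77 RPKM.

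The metallothioneins, small cysteine-rich proteins that bind zinc and copper, were among the most abundant members and neither passed. Mt1 measured 202, 228 and 154 RPKM in CD133(high)CD71(low) libraries and 236 and 262 RPKM in CD133(positive)CD71(negative) libraries (log2 fold change -0.37, SE 0.20, limma adjusted p = 0.219). Mt2, its neighbour on chromosome 8, measured 85.6, 98.3 and 60.9 RPKM, against 96.8 and 109 RPKM (limma adjusted p = 0.27). Both were lowest in library 3, and the log2 fold change of both was negative while the median of all genes was positive. Neither had an unadjusted p under 0.05. The ratio of Mt1 to Mt2 hardly varied, at 2.36, 2.32 and 2.53 in CD133(high)CD71(low) cells and 2.43 and 2.41 in CD133(positive)CD71(negative) cells.

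**Figure D3:**
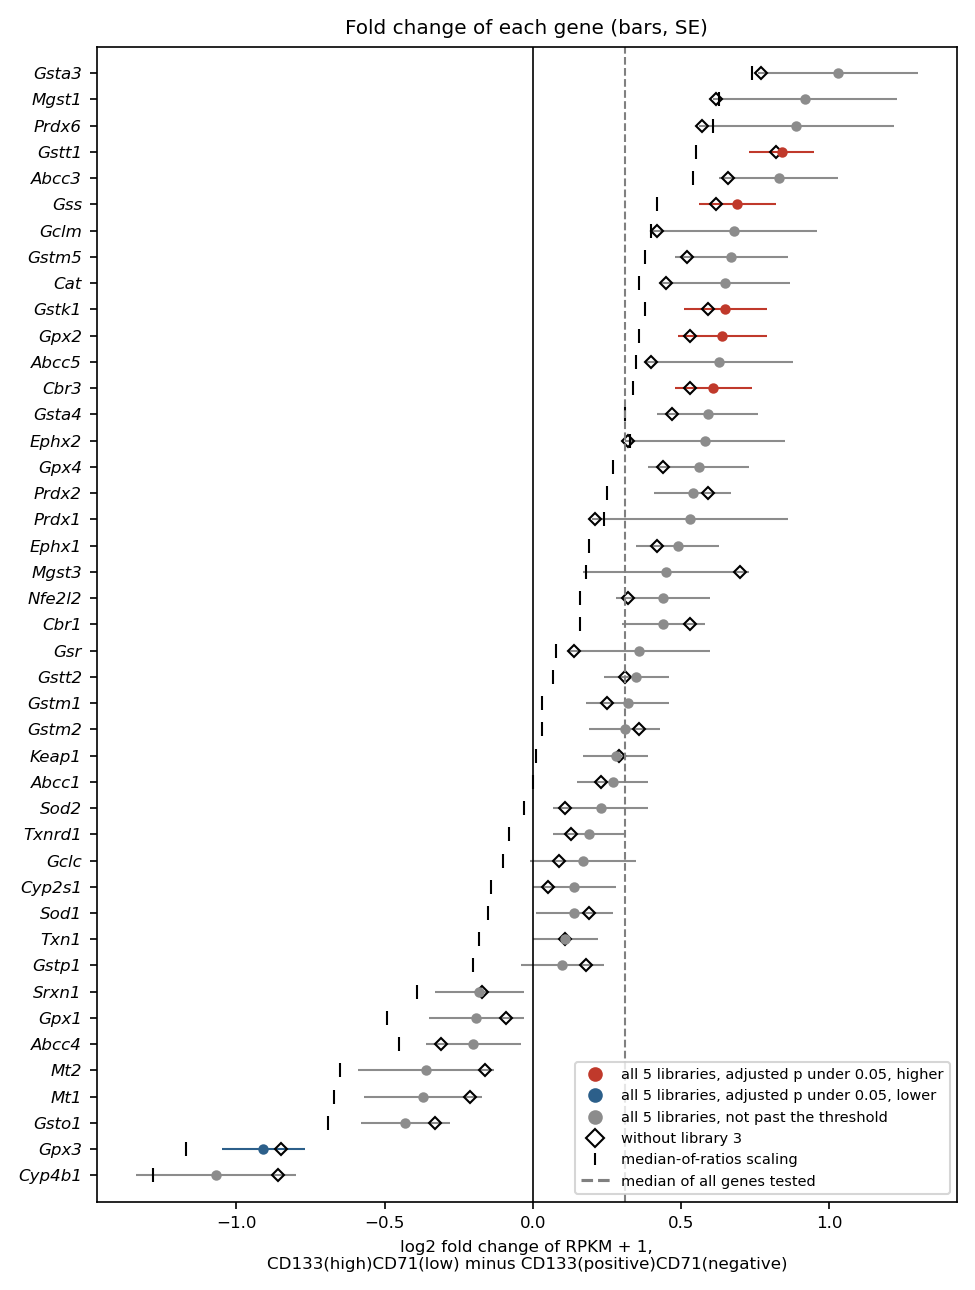
Log2 fold change of RPKM + 1 (positive where CD133(high)CD71(low) is higher than CD133(positive)CD71(negative)) for each of the 43 tested genes (filled circles with SE), beside the values without library 3 (open diamonds) and under median-of-ratios scaling (ticks). The dashed line is the median of all genes at 0.31; every median-of-ratios value lies to the left of its circle, and Prdx1, Prdx6 and Mgst1 move most when library 3 is left out.

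With each library left out in turn, none of the 6 calls held every time. The limma adjusted p of Gstt1 was 0.0494 without CD133(high)CD71(low) library 1, 0.0566 without library 2 and 2.48e-05 without library 3, and 0.173 and 0.142 without CD133(positive)CD71(negative) library 1 or 2. Gpx3 was at 0.0576, 0.0408 and 0.000125 without CD133(high)CD71(low) library 1, 2 or 3, and at 0.197 and 0.165 without CD133(positive)CD71(negative) library 1 or 2. Gss, Gstk1, Gpx2 and Cbr3 passed without library 3 and with no other library left out, and their highest limma adjusted p was 0.286, 0.266, 0.362 and 0.362. The directions did not change: over all 13 alternatives the log2 fold change lay between 0.55 and 0.86 for Gstt1, between 0.42 and 0.75 for Gss and between -1.17 and -0.85 for Gpx3. Among members that did not pass, the sign turned under at least 1 alternative for Gstp1, Gclc, Gsr, Keap1, Txn1, Txnrd1, Srxn1, Sod1, Sod2 and Cyp2s1.

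Genes of the same pathways outside the set gave a similar picture. Of 119 listed genes 90 were tested, and 7 rose and 3 fell, or 7.78% and 3.33%, against the background of 6.25% and 7.22%. Their median log2 fold change was 0.39. Without library 3, 47 rose and 9 fell (52.2% and 10%, against 40.9% and 12.2% of all genes). Nfe2l3, a relative of Nrf2, measured 8.36, 8.16 and 9.96 RPKM in CD133(high)CD71(low) libraries and 3.95 and 4.28 RPKM in CD133(positive)CD71(negative) libraries (log2 fold change 0.94, SE 0.14, limma adjusted p = 0.0128). Osgin1, an oxidative stress induced growth inhibitor gene, was abundant and measured 194, 180 and 181 RPKM, against 98.9 and 109 RPKM (log2 fold change 0.83, SE 0.12, limma adjusted p = 0.0134). Cyp2d22, a P450 gene, averaged 48.9 ± 3.54 RPKM in CD133(high)CD71(low) cells (SD, n = 3) and 30.5 ± 1.20 RPKM in CD133(positive)CD71(negative) cells (SD, n = 2), with a log2 fold change of 0.66 and a limma adjusted p of 0.0233. Adh1, an alcohol dehydrogenase gene, averaged 14.2 ± 2.44 RPKM, against 7.33 ± 0.108 RPKM (log2 fold change 0.85, limma adjusted p = 0.0277). The other genes that rose were Ggt6, Anpep and Glo1.

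The 3 that fell were Hmox1, Msrb3 and Abcb1a. Hmox1, encoding the haem oxygenase that is both an Nrf2 target and abundant in macrophages that clear red cells, measured 1.74, 1.36 and 0.906 RPKM in CD133(high)CD71(low) libraries and 5.40 and 5.66 RPKM in CD133(positive)CD71(negative) libraries (log2 fold change -1.50, SE 0.18, limma adjusted p = 0.0072). Abcb1a, a drug pump known from brain capillary endothelium, averaged 2.79 ± 0.471 RPKM in CD133(high)CD71(low) cells (SD, n = 3) and 5.52 ± 0.263 RPKM in CD133(positive)CD71(negative) cells (SD, n = 2), with a limma adjusted p of 0.0266. Msrb3, a methionine sulfoxide reductase gene, averaged 3.83 ± 0.733 RPKM, against 8.21 ± 0.442 RPKM (limma adjusted p = 0.0228). The leukocyte, endothelial and mesenchymal sums given above were lower in the same libraries, and their part in these falls was not tested.

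**Figure D4:**
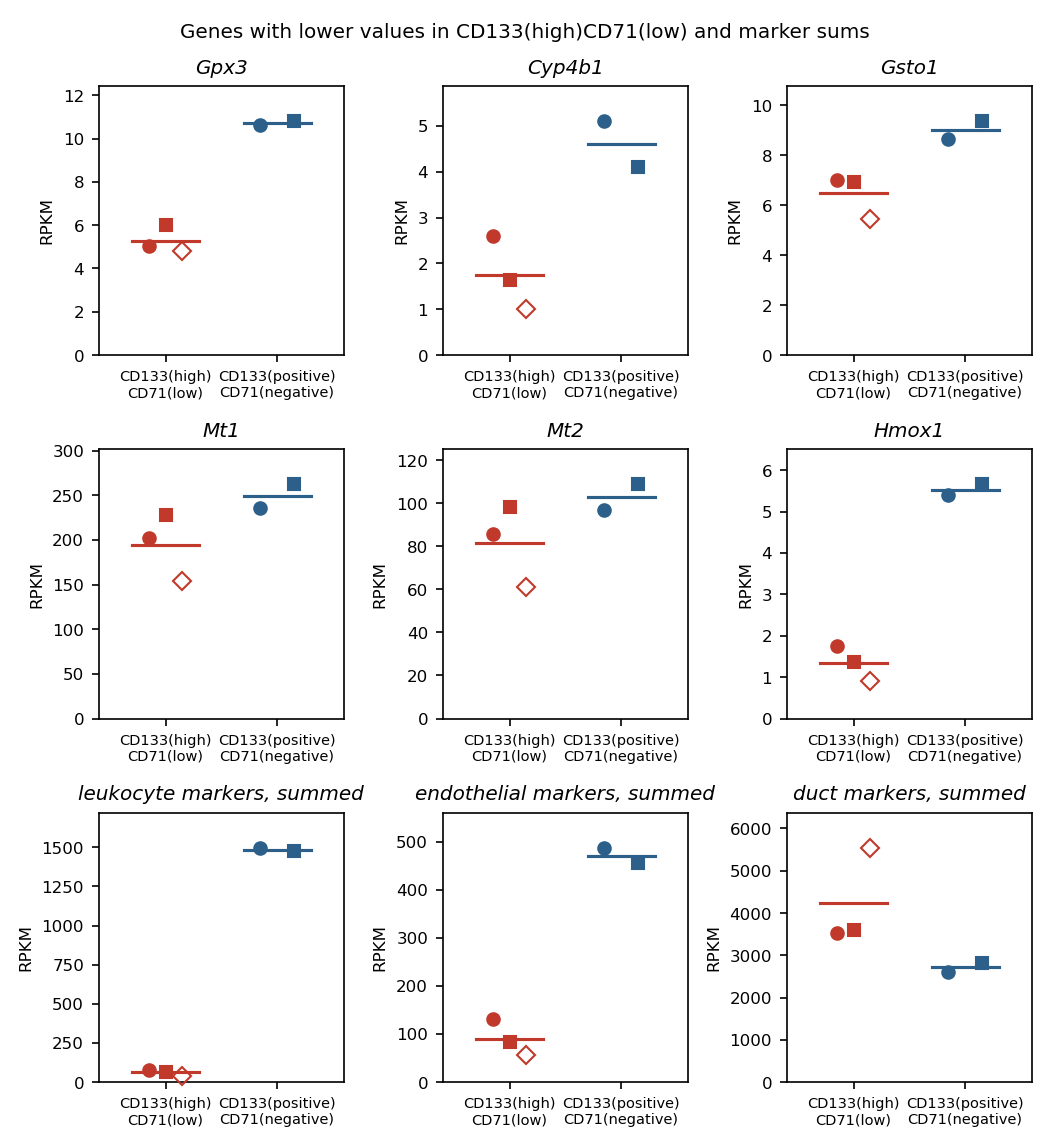
RPKM in each CD133(high)CD71(low) library (red, left; circle, square and diamond for libraries 1, 2 and 3) and each CD133(positive)CD71(negative) library (blue, right) for 6 genes with lower means in CD133(high)CD71(low) cells and for summed markers of leukocytes, endothelium and duct. The groups do not overlap for Gpx3, Cyp4b1, Gsto1, Mt1 and Hmox1 and overlap for Mt2; the leukocyte and endothelial sums are lower and the duct sum is higher in CD133(high)CD71(low) cells.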

How the data were processed

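The authors deposited 1 table per library, listing gene symbols with their values. Partek and mm10 are named per the submitters' processing notes, whereas the version, aligner and gene annotation were not given in those sources. The values deposited by the authors behave as RPKM: low values of single-transcript genes times length fell on whole reads (tolerance 0.05) in 54.2% to 58.4% of cases, against a median of 5.8% to 6.9% over the depths tried, too few to recover counts. FPKM cannot be told apart. A row of alignment totals in the table of library 3, which names no gene, was left out.

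The members and gene lists were chosen with earlier results of these data known. Genes with a mean of at least 1 were tested as log2(RPKM + 1) with limma 3.58.1 in R 4.3.3 (mean-variance trend, group as sole term, two-sided), with Benjamini-Hochberg adjustment over all genes. The test was checked on simulated data. With 2 libraries against 3, an exact permutation test of 1 value cannot reach 0.05 and none was used. Full values are given for members past the threshold and, in roles with none, for the highest member, and up to 4 risen and 4 fallen other pathway genes are named by smallest adjusted p; further fold changes and all other values are of members chosen after their values were seen. Alternatives were another pseudocount, other filters, 3 scalings, omission of each library in turn, and a block for replicate number. No library was a duplicate of another (at most 3 identical values among 11769 genes). Gene positions are from GENCODE vM21. Python 3.11.15, pandas 2.3.3 and matplotlib 3.10.9 were used.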

Additional observations from a re-analysis of the deposited data

How the results depend on the processing

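All 6 calls kept their direction under the 13 alternatives, but the counts moved with the libraries and the scaling; the cause was not tested beyond what each alternative changes. With each library left out in turn, members higher ranged from 0 to 25 and lower from 0 to 4, other pathway genes from 0 to 47 and 0 to 9, and all genes from 0 to 4785 and 154 to 1425. Median-of-ratios scaling gave 2 members higher, 2 and 6 other pathway genes higher and lower, and 312 genes higher. Pairs of counts are higher and lower. Quantile normalization gave 3 and 2 members and 6 other pathway genes lower. Removing acinar genes and rescaling gave 3 members higher, 4 and 5 other pathway genes, and 398 genes higher. Median-of-ratios scaling of the 4 numbered libraries alone gave 16 and 6 members, 20 and 13 other pathway genes, and 1782 and 1931 genes. No filter gave 10 other pathway genes and 1729 genes lower; a mean of at least 5 gave 1 and 315. The members' median of 0.44 became 0.16, 0.14, 0.22 and 0.13 under median-of-ratios, quantile, acinar-free and numbered-library median-of-ratios scaling. In the same order the fold change of Gstp1 turned to -0.20, -0.08, -0.14 and -0.02, and that of Sod1 to -0.15, -0.07, -0.09 and -0.004.

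The groups share replicate numbers 1 and 2 only, and same-numbered deviations were not correlated (r = -0.024 across 11769 genes). With so few libraries that value cannot tell whether same-numbered libraries shared mice or sorting runs. With the replicate number as a block in the 4 numbered libraries, 25 members rose and 4 fell, as without the block, with 51 and 9 other pathway genes and 5275 and 1543 genes. The block takes a further term from a fit on 4 libraries and leaves little from which to estimate spread. The lowest limma adjusted p given above over the alternatives for Mgst1, Cat and Cyp4b1 came from this fit. Without CD133(positive)CD71(negative) library 1 or 2, limma called 0 or 1 of all genes higher (783 or 1362 at an unadjusted p under 0.05) and 157 or 154 lower. RPKM keeps no counts, so counting intervals could not be given.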
